A study of Rattus norvegicus with 8 samples.

Results

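Enzymes that break down amino acids and amines in the kidney were examined as a group of 9 genes: Gatm, Agxt2, Hnmt, Ddc, Hpd, Hgd, Dmgdh, Sardh and Prodh. The genes were chosen by symbol, and their array probes were found through the RefSeq accession of each probe. All 9 were on the array, by 12 of its 30367 probes, among 15637 genes with a symbol. The study hybridised kidney RNA of 8 rat samples to Agilent arrays of 1 colour, 1 array per sample. Every sample came from male SD rats (Sprague-Dawley, an outbred strain) aged 10 weeks and treated for 4 weeks. The 4 Control samples had received 0.5% methylcellulose, a dosing vehicle, and the 4 APL samples 150 mg/kg of APL, taken to be allopurinol, the gout drug named in the title of the study, which blocks xanthine oxidase. Nothing in the labels says that samples of 1 group came from different animals, so p-values measure the spread between these samples, which may be technical. The title speaks of tubules and the tissue label of kidney.

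The proximal tubule takes back filtered amino acids and breaks many of them down in its mitochondria, peroxisomes and cytosol. It makes the creatine precursor guanidinoacetate, makes dopamine from filtered L-DOPA, oxidises proline and sarcosine, and carries the tyrosine pathway that is otherwise best known from liver. Several of these enzymes are used as markers of mature proximal tubule cells.

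Signals are given as multiples of the array's own 75th percentile, or as log2 of that multiple. This percentile was 291 ± 18 on the Control and 455 ± 53 on the APL arrays (SD, n = 4 each; exact two-sided permutation p = 0.0286, the smallest that 70 splits allow), so all changes are relative to a scale that itself differed. Probes well above background made up 74.0% to 77.3% of the Control and 79.9% to 81.9% of the APL arrays. A gene is called changed at a limma adjusted p under 0.05 over 21416 genes or unnamed transcripts. That call was reached by 23.5% of them, by 11.5% as lower and by 11.9% as higher in APL. Of the called ones 50.8% were higher, against 37.2% with scaling to the array median and 83.7% without scaling. Levels of different probes are not compared with each other.

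All 9 genes were lower in the APL kidneys, and in each of them the 4 APL values lay wholly below the 4 Control values. Over all genes tested 11.5% were called lower and 15.9% lay wholly below. The log2 changes ran from -1.32 for Agxt2 to -9.15 for Hnmt, with a median of -3.40 where all genes had -0.03. The genes were picked with earlier results of these data known, so the count is a description. All 9 passed the filter on dim probes, and 8 were well above background on all 8 arrays. In a bulk sample, fewer tubule cells and less RNA per cell cannot be told apart.

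**Figure D1:**
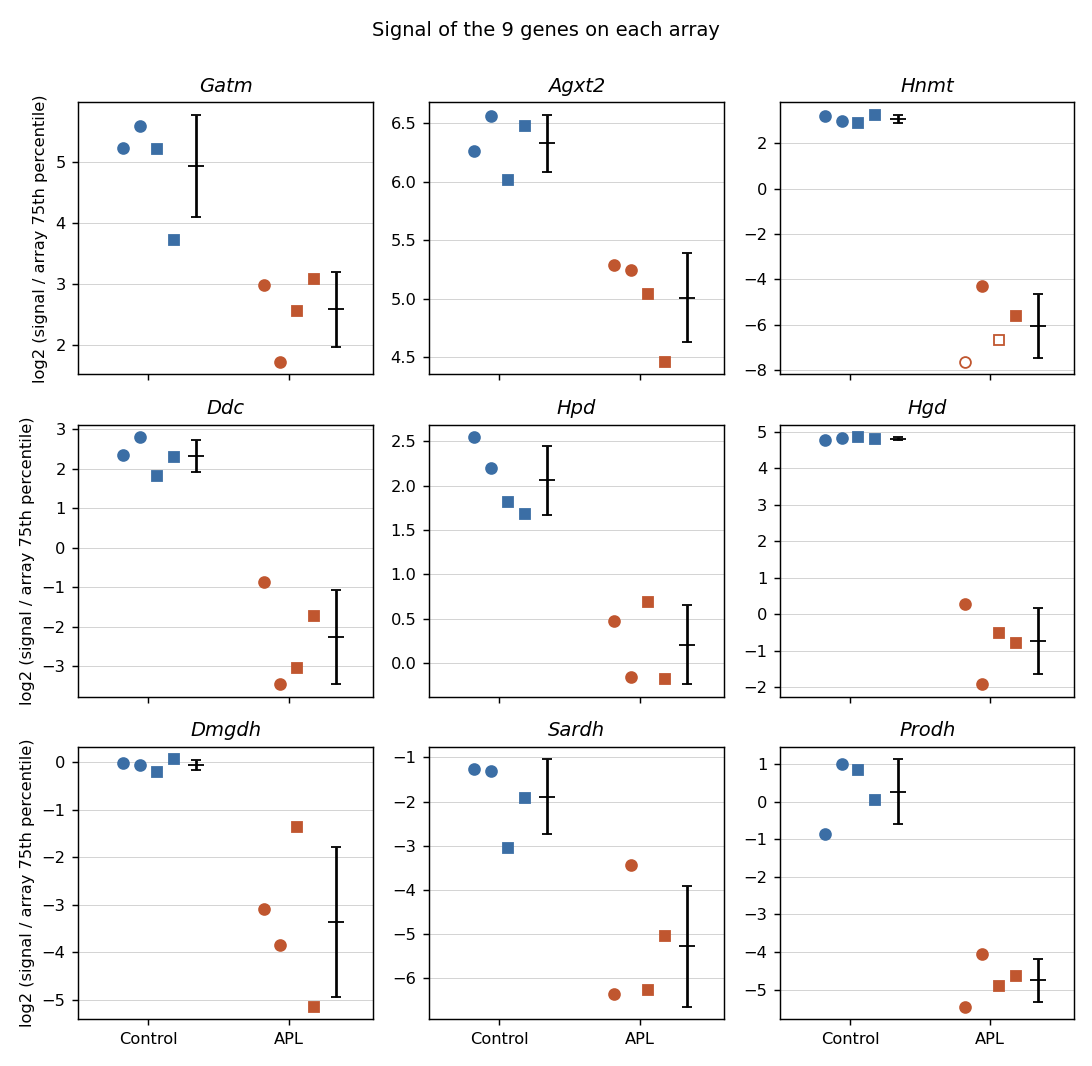
Signal of each gene on each array as log2 of the multiple of the array's 75th percentile; blue points are Control and orange points APL samples, in replicate order, circles slide 1 and squares slide 2, open points arrays on which the probe was not well above background, and black bars mean ± SD (n = 4). The vertical scale differs between panels, and in all 9 panels the APL points lie below the Control points.

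Because the 9 genes moved together, the 250 bases before their RefSeq start sites (build GRCr8) were read on both strands for CAAAGTCCA as well as CAAAGGTCA, motifs of HNF4, a transcription factor of the proximal tubule, and for the TATA box, searched as TATAAA. Of the 9 genes 7 had an entry, some with several start sites, 10 windows in all. CAAAGTCCA was found for 1 of the 7, Agxt2, in 1 of the 10 windows, and in 0.338% of 33469 promoters. The TATA box letters were found for 2, Agxt2 and Ddc, in 2 of the 10 windows, and in 12.9% of promoters. Both matches lie on the strand opposite to the gene, 104 to 99 bases before the start in Agxt2 and 68 to 63 in Ddc. CAAAGGTCA, in 0.376% of promoters, matched 0 of the 7. A match is only a run of letters, not a shown binding site. The transcript of the factor itself, Hnf4a, was lower, with a log2 fold change of -2.44 ± 0.32 (limma adjusted p = 0.00126). Hnf4a is also on the list of proximal tubule markers used below. Whether its fall bears on those of the 9 genes was not tested.

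The Agxt2 promoter is shown because it holds the HNF4 letters, beside those of the genes with the largest falls that have an entry, Hnmt and Hgd, in which none of these motifs was found. Each runs 5′ to 3′ on the gene's strand and ends at the base before the start, and capitals mark every match to these motifs on either strand. The Agxt2 window is chr2:61063166-61063415, plus strand, that of Hnmt chr3:27010292-27010541, minus strand, and that of Hgd chr11:76643768-76644017, minus strand.
Agxt2 promoter: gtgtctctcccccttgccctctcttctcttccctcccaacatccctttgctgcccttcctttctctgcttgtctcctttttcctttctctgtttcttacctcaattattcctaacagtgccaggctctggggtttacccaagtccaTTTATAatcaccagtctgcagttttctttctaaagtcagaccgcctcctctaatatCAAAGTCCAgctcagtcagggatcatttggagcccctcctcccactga
Hnmt promoter: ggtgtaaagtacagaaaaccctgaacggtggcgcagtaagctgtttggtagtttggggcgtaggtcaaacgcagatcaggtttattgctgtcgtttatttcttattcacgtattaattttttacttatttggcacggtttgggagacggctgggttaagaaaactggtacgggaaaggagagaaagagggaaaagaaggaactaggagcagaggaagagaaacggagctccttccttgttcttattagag
Hgd promoter: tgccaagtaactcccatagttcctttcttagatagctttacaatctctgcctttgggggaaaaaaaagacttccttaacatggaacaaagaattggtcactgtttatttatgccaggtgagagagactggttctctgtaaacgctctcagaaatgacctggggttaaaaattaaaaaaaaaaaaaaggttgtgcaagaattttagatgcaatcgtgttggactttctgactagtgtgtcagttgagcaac
The Agxt2 match to CAAAGTCCA starts 48 bases before the start site.

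Gatm encodes arginine:glycine amidinotransferase, the enzyme that makes guanidinoacetate, the precursor of creatine. Its signal was 37.7, 48.6, 37.3 and 13.1 times the 75th percentile in Control replicates 1 to 4 and 7.85, 3.29, 5.86 and 8.48 times in APL replicates 1 to 4. Control replicate 4 was the lowest control and stood nearest to the APL samples, yet the groups did not overlap. The log2 fold change was -2.36 ± 0.48 (SE, n = 4 each; limma adjusted p = 0.0105), a level 5.14-fold lower with a 95% interval of 2.40 to 11. The probe is printed on 10 spots of each array, and the SD of log2 signal over those spots was 0.0305 to 0.0617, far below the SD between samples of 0.84 in Control and 0.62 in APL. A further Gatm probe changed by -2.71 ± 0.56.

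Agxt2, the gene with the CAAAGTCCA match, encodes a mitochondrial aminotransferase that uses glyoxylate and clears beta-aminoisobutyrate and methylated arginines. It had the smallest change of the 9. The Control values were 76.6, 94.5, 64.7 and 89.0 times the 75th percentile and the APL values 39.0, 38.1, 33.0 and 22 times. The APL samples thus kept a strong signal, and the log2 fold change was -1.32 ± 0.25 (limma adjusted p = 0.00806). Without scaling between arrays it was -0.68 and the call was lost (adjusted p = 0.0709), while the median of all genes moved from -0.03 to 0.60 under that setting.

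The amine enzymes had larger changes than Gatm and Agxt2. Hnmt encodes histamine N-methyltransferase, which inactivates histamine inside cells and is strongly expressed in kidney. The Control samples lay close together at 9.34, 8.02, 7.45 and 9.58 times the 75th percentile. The APL samples lay at 0.00219, 0.0507, 0.00989 and 0.0202 times, and only replicates 2 and 4 were well above background. Every APL value was thus far under every Control value. The log2 fold change was -9.15 ± 0.64 (adjusted p = 6.92e-05). Its size leans on the floor of 0.005 set for dim signals: it was -8.40 with a floor of 0.02, and -4.74 when the background was corrected by normexp, a model of signal plus noise with an offset of 50, before division by the 75th percentile. APL replicate 1 lay under the floor and entered the fit at it.

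Ddc encodes aromatic L-amino acid decarboxylase, which turns L-DOPA into dopamine in the proximal tubule. Its signal was 5.05, 6.95, 3.52 and 4.89 times the 75th percentile in Control and 0.552, 0.0927, 0.123 and 0.3 times in APL. All 4 APL values were below all Control values, with replicate 1 the highest of them. The log2 fold change was -4.57 ± 0.56 (adjusted p = 0.00101), a level 23.8-fold lower with an interval of 9.68 to 58.5. The other Ddc probe changed by -2.94 ± 0.38, also called.

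Hpd and Hgd encode neighbouring steps of tyrosine breakdown: 4-hydroxyphenylpyruvate dioxygenase makes homogentisate, and homogentisate 1,2-dioxygenase opens its ring. Hpd read 5.84, 4.59, 3.52 and 3.19 times the 75th percentile in Control and 1.38, 0.894, 1.61 and 0.880 times in APL. The groups did not overlap, and the log2 fold change was -1.86 ± 0.30 (adjusted p = 0.00382), or -1.22 without scaling between arrays. Hgd, whose printed promoter holds none of the motifs, had the tightest Control values of the 9 genes, at 27.1, 28.1, 28.8 and 28.0 times, an SD of 0.035 on the log2 scale. In APL it read 1.20, 0.264, 0.701 and 0.581 times, wholly below. The log2 fold change was -5.54 ± 0.42 (adjusted p = 0.000105), a level 46.7-fold lower with an interval of 23.8 to 91.7, and it lay between -5.72 and -4.69 over the other settings that used all 8 arrays.

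Dmgdh and Sardh encode the mitochondrial flavoenzymes that take the methyl groups off dimethylglycine and sarcosine, successive steps of choline breakdown to glycine. Dmgdh was even in Control at 0.985, 0.954, 0.863 and 1.04 times the 75th percentile and uneven in APL at 0.118, 0.0691, 0.386 and 0.0283 times. The highest APL value, that of replicate 3, was still under the lowest Control value, and the log2 fold change was -3.30 ± 0.70 (adjusted p = 0.0129). Sardh read 0.416, 0.407, 0.120 and 0.264 times in Control and 0.0121, 0.0919, 0.0129 and 0.0300 times in APL. Its groups came closest of all 9, with 0.38 on the log2 scale between Control replicate 3 and APL replicate 2, and the log2 fold change was -3.40 ± 0.71 (adjusted p = 0.0121). Both calls were lost with normexp and the 75th percentile, where Dmgdh changed by -1.17 (adjusted p = 0.211) and Sardh by -0.49 (adjusted p = 0.661). With normexp and quantile normalization both were called, Dmgdh at -1.55 (adjusted p = 0.00295) and Sardh at -0.94 (adjusted p = 0.00517).

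Prodh encodes proline dehydrogenase, the first step of proline oxidation in mitochondria. The brighter of its 2 probes read 0.546, 2.01, 1.80 and 1.03 times the 75th percentile in Control and 0.0229, 0.0606, 0.0338 and 0.0405 times in APL. These groups lay far apart, and the log2 fold change was -5.01 ± 0.48 (adjusted p = 0.000306). With normexp and the 75th percentile it was -2.17 and missed the threshold (adjusted p = 0.0520), and with normexp and quantile normalization it was -2.39 and called (adjusted p = 0.000715). The dimmer probe read 0.0928, 0.0764, 0.155 and 0.122 times in Control and 0.0506, 0.0483, 0.0556 and 0.0326 times in APL. It moved the same way but by only -1.23 ± 0.29 (adjusted p = 0.0206), so the probes disagree on the size.

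**Figure D2:**
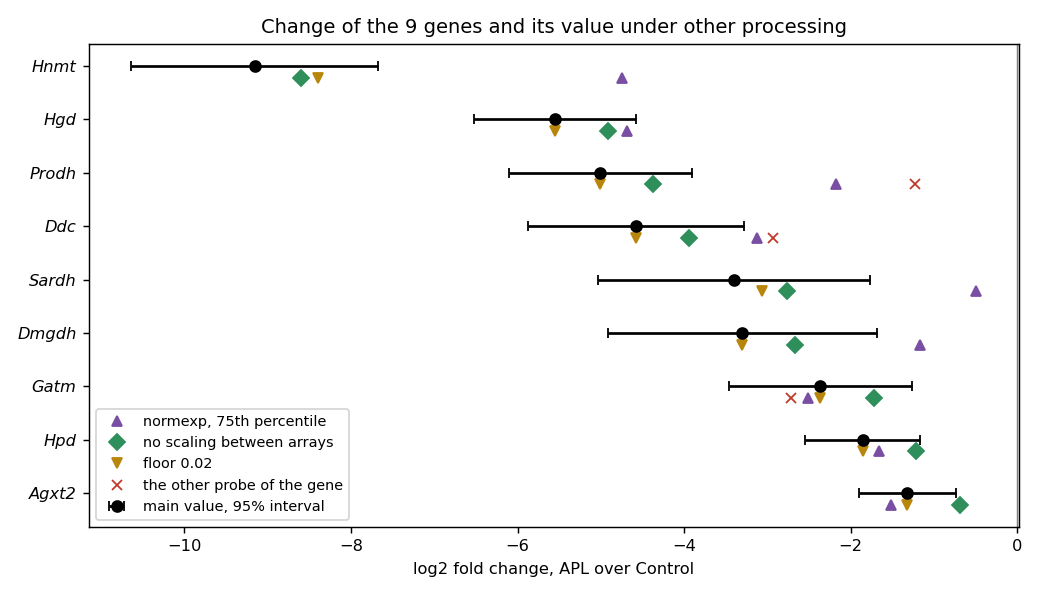
Log2 fold change of APL over Control for the 9 genes, with the main value and its 95% interval (black), and the values with normexp and the 75th percentile (triangles pointing up), without scaling between arrays (diamonds), with a floor of 0.02 (triangles pointing down) and from the other probe of Ddc, Gatm and Prodh (crosses). Every value shown is below 0; the spread between settings is widest for Hnmt, Prodh, Sardh and Dmgdh, whose Control or APL signals are dim.

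No APL sample was the lowest for every gene. Replicates 1, 2 and 4 were each the lowest for 3 of the 9 genes, and replicate 3 for 0. APL replicate 2 had the lowest Gatm, Ddc and Hgd but the highest Hnmt, Sardh and Prodh. APL values spread over a wider log2 range than Control values for 7 of the 9 genes, the exceptions being Gatm and Prodh. Control replicate 3 was the lowest control for 5 of the 9. Slide, which was scanned as a unit and held 2 arrays of each group, left the direction as it was: all 9 changes were below 0 on both slides, with Gatm at -3.07 on slide 1 and -1.65 on slide 2 and Hgd at -5.62 and -5.47. All 9 stayed called lower with any 1 array left out.

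Whether neighbouring steps or routes changed by unequal amounts was tested within arrays, as the difference of 2 genes' log2 values, for 5 pairs. Hgd fell further than Hpd, by 3.69 on the log2 scale (exact two-sided permutation p = 0.0286 over 70 splits, 0.0476 adjusted over the 5 pairs). The brighter Prodh probe fell further than Aldh4a1, which encodes the next enzyme of proline oxidation, with a difference of -3.29 (the same p and adjusted p). That order rests on the probe: with the mean of the Prodh probes the difference was -1.06, and the dimmer probe alone changed by -1.23 where Aldh4a1 changed by -1.72 ± 0.25, the opposite order. Ddc fell relative to Maoa, which encodes a monoamine oxidase that degrades dopamine, with a difference of -5.26 (the same p and adjusted p). Maoa itself was not called, at 0.69 ± 0.41 (limma adjusted p = 0.263). In these 3 pairs the 4 APL differences lay wholly apart from the 4 Control differences. The smallest p of 70 splits, 0.0286, passes the adjustment over 5 pairs only where at least 3 pairs reach it. Whether 1 pair passes thus depends on the others. Every pair also holds a gene picked with earlier results of these data known, so these p-values are descriptions. With normexp and the 75th percentile no pair passed, at 3.03 for Hpd and Hgd, -0.38 for Prodh and Aldh4a1 and -3.67 for Ddc and Maoa. With normexp and quantile normalization these 3 pairs passed, at 3.25, -0.91 and -3.55 (exact permutation, adjusted p = 0.0476 each).

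For the pair Dmgdh and Sardh the difference was 0.10 (exact permutation p = 1), and for Gatm and Gamt, which encodes the methyltransferase that completes creatine synthesis, -0.45 (p = 0.400, 0.500 adjusted). The APL differences of Dmgdh and Sardh ran from -0.41 to 4.90, so an unequal change of that size was not detectable. A pair of Hnmt and Aoc1, the extracellular histamine-degrading diamine oxidase, could not be tested because Aoc1 was under the detection filter.

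**Figure D3:**
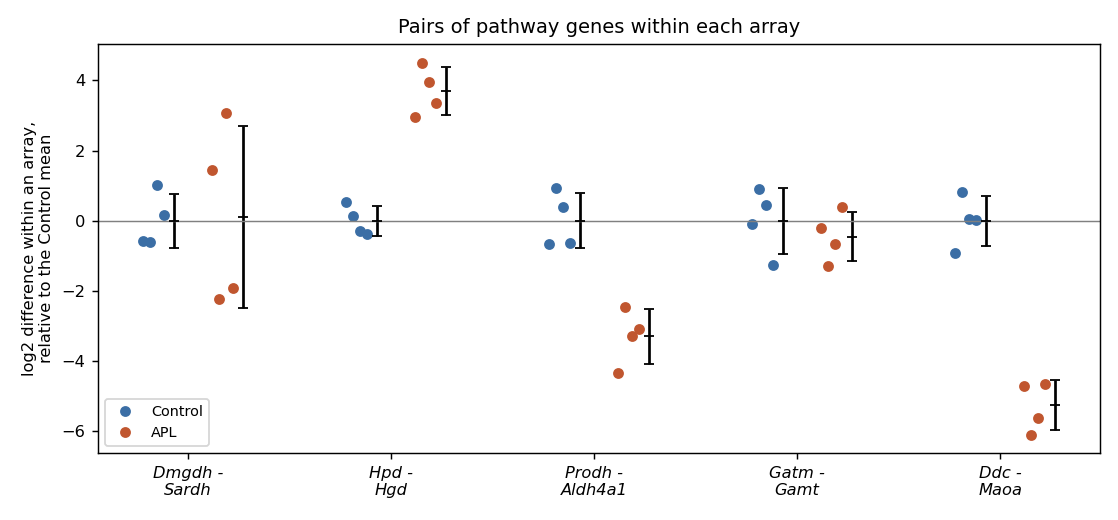
Difference of 2 genes' log2 values within each array, set to the Control mean of that pair; blue points are the 4 Control and orange points the 4 APL arrays, and black bars mean ± SD (n = 4). The groups lie apart for Hpd and Hgd, Prodh and Aldh4a1, and Ddc and Maoa, and overlap for the other pairs.

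Other enzymes of the same pathways were taken from lists set by biochemistry, whose counts and medians include the 9 genes themselves where they belong. These lists and the marker lists were drawn up with earlier results of these data known, so their counts are descriptions. Of 97 further genes tested, 62 were lower, 7 higher and 28 not called, with a median of -1.84. The shares, 63.9% lower and 7.22% higher, stand beside 11.5% and 11.9% over all genes. Of the 69 called, 10 lost their call with normexp and the 75th percentile and 6 without scaling, and 0 changed sign over 13 settings that used all 8 arrays.

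In the tyrosine list 8 of 8 tested genes were called lower, with a median of -2.49. Pcbd1, 1 of the 8, lost its call without scaling between arrays (limma adjusted p = 0.189). Gstz1, maleylacetoacetate isomerase, fell by 3.56 ± 0.40, and Fah, the last enzyme of the pathway, fell by 3.45 ± 0.23. Tat, the aminotransferase that starts tyrosine breakdown in liver, was under the detection filter. In the choline, glycine and one-carbon list 14 of 16 genes were lower and 0 higher, with a median of -2.17. Bhmt and Bhmt2, which remethylate homocysteine, fell by 2.39 ± 0.50 and 5.14 ± 0.34. Gnmt, which makes sarcosine from glycine, fell by 4.6 ± 0.64, and Pipox, which also oxidises sarcosine, changed by -2.71 ± 0.97 (adjusted p = 0.0789). Etfdh, which passes electrons from flavoenzymes such as Dmgdh and Sardh to the respiratory chain, fell by 1.94 ± 0.25.

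Of 10 tested genes of proline, hydroxyproline and ornithine metabolism 7 were lower and 2 higher, with a median of -2.25. Among the enzymes of breakdown, Prodh2, hydroxyproline dehydrogenase, fell by 2.37 ± 0.26, Hoga1, the last mitochondrial step of hydroxyproline breakdown, fell by 2.15 ± 0.23, and Oat, ornithine aminotransferase, fell by 2.35 ± 0.21. Aldh18a1, which encodes the enzyme that starts proline synthesis from glutamate, rose by 3.05 ± 0.29 (1.12 to 3.68 over the other settings). Pycr3, of the last step of proline synthesis, changed by 0.05 ± 0.41 (adjusted p = 0.940).

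The creatine list held 2 lower and 1 higher of 5 genes. Gamt fell by 1.91 ± 0.22 while Ckb, brain-type creatine kinase, rose by 1.99 ± 0.28, and the creatine transporter Slc6a8 changed by 0.14 ± 0.30 (adjusted p = 0.760). Of 10 genes of glyoxylate, beta-amino acid and methylarginine metabolism 6 were lower and 1 higher. Dao, D-amino acid oxidase, fell by 5.29 ± 0.36, Grhpr, glyoxylate reductase, fell by 3.20 ± 0.26, and Ddah1, which like Agxt2 clears methylarginines, fell by 2.25 ± 0.30. Its paralog Ddah2 rose by 1.49 ± 0.25, and missed the threshold under normexp with the 75th percentile (adjusted p = 0.0549).

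The histamine and monoamine list was mixed, with 4 of 10 lower, 0 higher and 6 not called. Besides Hnmt and Ddc, the basolateral organic cation transporter Slc22a2 fell by 4.73 ± 0.50. Slc6a19, the neutral amino acid transporter of the brush border, fell by 2.70 ± 0.60, and was not called under normexp with the 75th percentile (adjusted p = 0.959). Hdc, which makes histamine, changed by -1.44 ± 0.95 (adjusted p = 0.310) and Maob by -0.46 ± 1.14 (adjusted p = 0.794). Mast cells are rich in histamine. Of 8 mast cell markers 4 were tested. Kit, which other cells also express, was higher by 2.64 ± 0.29, and Tpsab1 by 0.86 ± 0.25, a call lost under 6 other settings (adjusted p up to 0.515) and without any 1 of 7 arrays. Tpsb2 changed by -0.44 ± 0.26 (adjusted p = 0.261) and Mcpt1 by 0.12 ± 0.38 (adjusted p = 0.846). The summed signal of all 8, also those under the detection filter, ran from 0.519 to 0.652 times the 75th percentile in Control. In APL it ran from 1.32 to 1.58 times. Kit had the largest rise of the 4 tested, and Cpa3, Ms4a2, Fcer1a and Cma1 were under the detection filter.

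Breakdown of other amino acids was lower as well. Of 17 branched chain and propionate genes 12 were lower and 1 higher (median -2.11): Bckdhb, a subunit of the branched chain ketoacid dehydrogenase, fell by 3.28 ± 0.39, and Aldh6a1, of valine breakdown, fell by 3.40 ± 0.24. The higher one was Bcat1, the cytosolic branched chain aminotransferase, which rose by 6.21 ± 0.66 against 1 Control array well above background and by 1.72 with normexp and the 75th percentile or more under the other settings. Of 22 genes of lysine, sulphur and other amino acids 15 were lower and 2 higher (median -2.34). Cth and Cbs, of cysteine synthesis, fell by 5.17 ± 0.48 and 3.98 ± 0.33, and Cdo1, cysteine dioxygenase, fell by 5.64 ± 0.45. Asns, asparagine synthetase, rose by 5.49 ± 0.48 (2.60 to 6.13 over the other settings). Of 8 polyamine genes 3 were lower and 0 higher (median -0.67), among them Odc1, ornithine decarboxylase, which fell by 4.03 ± 0.25.

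**Figure D4:**
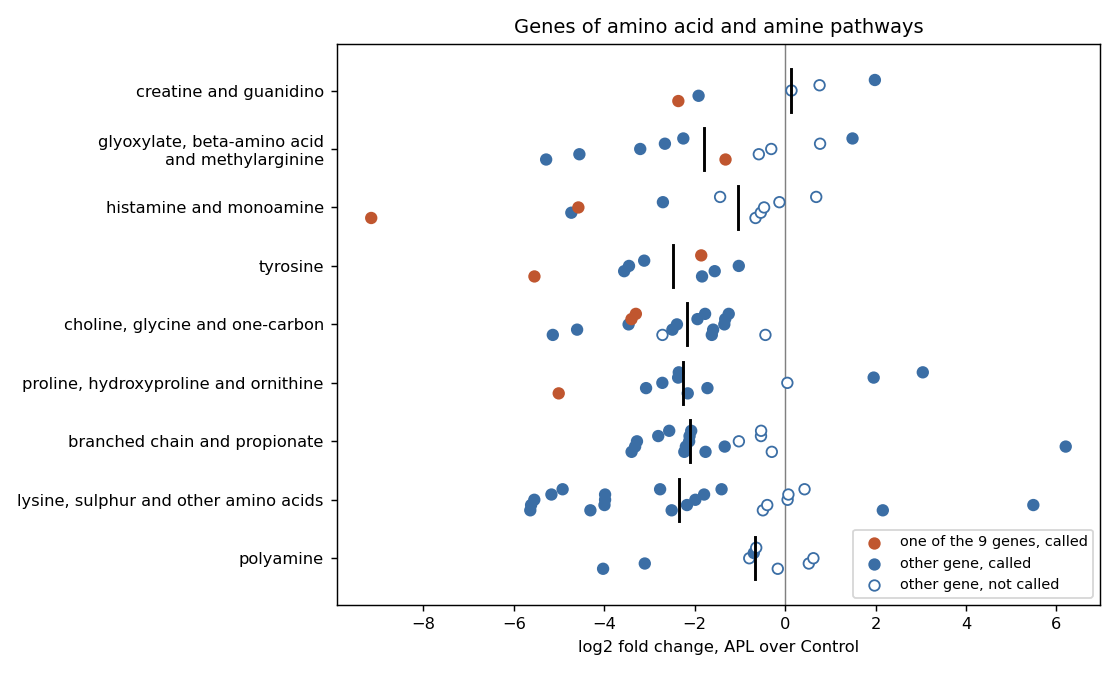
Log2 fold change of APL over Control for every tested gene of 9 pathway lists; orange points are the 9 genes described here, blue points other genes, filled where called at an adjusted p under 0.05, and the black bar marks each list's median. Most points lie left of 0; the points right of 4 are Bcat1 and Asns.

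Over the 8 arrays, the mean profile of the 9 genes, each centred on its own mean, was matched most closely by Ak4, a mitochondrial adenylate kinase, at a root mean square distance of 0.12 on the log2 scale among 12664 genes with a symbol. Glyat, glycine N-acyltransferase (0.20), Acy3, an aminoacylase (0.27), Cyp2c23 (0.29) and Slc7a12l1 (0.29) followed. Glyat and Acy3 also stand on the list of other amino acids and fell by 4.00 ± 0.20 and 3.98 ± 0.22. For single genes, the closest profile to that of Ddc was that of Aoah (0.16), to Agxt2 that of Or55b4 (0.19), to Hpd that of Akr1a1 (0.23), to Hgd that of Pzp (0.29) and to Gatm that of Nlrp9 (0.42). The nearest profiles of the other genes lay farther off, Oacyl for Sardh (0.49), Bhmt2 for Prodh (0.52), Abhd14b for Dmgdh (0.65) and Slc7a13 for Hnmt (0.92).

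Markers of proximal tubule cells moved with the 9 genes: 11 of 14 were lower and 1 higher, with a median of -2.56, and their summed signal was 560 to 678 times the 75th percentile in Control and 82.7 to 123 times in APL. The summed signals given for each cell type take in every listed marker, also those under the detection filter. Lrp2, the endocytic receptor megalin, fell by 2.15 ± 0.23 and Slc34a1, the phosphate cotransporter, fell by 4.53 ± 0.39, while Cubn changed by -0.53 ± 0.22 (adjusted p = 0.116) and Slc5a2 rose by 3.04 ± 0.66. Endothelial markers were lower for 5 of 6, with summed signals of 6.15 to 11.3 times in Control and 0.580 to 0.805 times in APL. Kdr and Vwf kept their calls under all settings with all 8 arrays, while Pecam1, Emcn and Tek under normexp with the 75th percentile had adjusted p of 0.407, 0.713 and 0.959 and were not called. Emcn also lost its call when any 1 of 5 arrays was left out. Emcn and Tek were well above background on 1 APL array. Of the macrophage markers 3 of 7 tested were higher (summed signal 3.15 to 9.68 times against 12.1 to 15.9 times) and of the fibroblast markers 2 of 6 were higher and 1 lower (14.3 to 17.7 times against 29.6 to 91.6 times). Of the thick limb and distal markers 1 of 5, Umod, was lower (41.7 to 57.7 times against 2.77 to 19.9 times). Umod supplied most of that sum in Control (mean log2 value 5.16, next Slc12a1 at 2.79). Slc12a1 (-0.68 ± 0.57), Slc12a3 (-0.25 ± 0.64), Calb1 (-1.62 ± 1.44) and Kcnj1 (-1.02 ± 0.78) were not called. Of the collecting duct markers 1 of 6 was higher (2.67 to 10.8 times against 4.88 to 22.4 times). Of the podocyte markers 1 of 5 was lower and 1 higher, and of the T cell markers 0 of 3 tested was called. These calls were unstable except that of Podxl, the lower podocyte marker: Umod (thick limb) lost its call without the detection filter and without any 1 of 6 arrays, Aqp2 (collecting duct) under 2 settings and without any 1 of 4 arrays, and Synpo, the higher podocyte marker, under 5 settings and without any 1 of 6 arrays. Pdgfra, the lower fibroblast marker, lost its call under 3 settings and without any 1 of 4 arrays, and C1qc, of the macrophage markers, without APL replicate 4. The part of these shifts in the falls of the 9 genes was not tested. Of 7 hepatocyte markers, Alb, Apoa1, Ttr, Cps1 and Tat were under the detection filter, and the summed signal of the list was 0.129 to 0.247 times in Control and 0.134 to 0.429 times in APL.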

How the data were processed

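The authors read the 8 arrays with Agilent Feature Extraction 10.5.1.1 (protocol GE1_105_Dec08, array design 028282, header build rn4), per the file headers. The deposited intensity values used are the processed signal, already corrected for background and spatial trend, and, for the normexp alternatives, the median signals of spot and local background. The deposited series table holds the authors' log2 values, which lay within 0.01 of log2 processed signal minus the 75th percentile, centred per probe on its median, for 91.4% to 94.9% of probes per array (r at least 0.999); it was an alternative.

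Non-uniform spots were left out, spots of a probe averaged, and signals divided by the array's 75th percentile, floored at 0.005 and log2-transformed. Probes well above background on at least 4 of 8 arrays were kept (24339), and the brightest stood for a gene. Of 30367 probes, 18643 got 1 symbol by unversioned accession from RefSeq (GRCr8); 11724 are unnamed here. APL was set against Control in limma 3.58.1 (R 4.3.3; lmFit, eBayes) with Benjamini-Hochberg adjustment; ± is the moderated SE, n = 4 each, unless SD is named. Signal over background and the number of arrays limit precision. Tested on simulated data of 21351 genes, the fit called 75% of 100 genes lowered by 3 and 9% of 100 lowered by 1 (log2). Far fewer genes changed there than the 23.5% called here, so these rates are not the sensitivity of the real fit. All genes of the 9 and of the fixed pathway and marker lists could be named, and pattern matches were the 5 nearest to the mean and the nearest to each gene. The members and lists were chosen with earlier results of these data known. Scalings, background corrections, floor, filters, probes, slide, replicate number and single arrays were varied, and leaving out population outlier spots or using the other probe was added after seeing the data. Some genes of the lists and 1 group of promoter motifs are not reported here by name.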

Additional observations from a re-analysis of the deposited data

How the results depend on the processing

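All 9 genes were below 0 under every setting run, and 9 of 9 were called lower with each array left out in turn. Within a slide, 2 arrays against 2, 3 of 9 were called on slide 1 and 3 on slide 2. With normexp and the 75th percentile 6 of 9 were called (not Dmgdh, Sardh and Prodh), and without scaling 8 (not Agxt2). Of all genes tested, 5026 were called (2554 higher, 2472 lower), against 2013 (1040 and 973) with normexp and the 75th percentile, 1022 (509 and 513) on slide 1, 658 (379 and 279) on slide 2, and 5883 higher and 1143 lower without scaling. With 1 array left out 3383 to 4189 were called, 1606 to 2204 higher and 1777 to 2019 lower. The median of all genes moved from -0.03 to -0.11 with quantile normalization, -0.20 with median scaling, 0.36 with normexp and the 75th percentile and 0.60 without scaling, so list medians are compared here after subtracting it. So counted, they moved by more than the SD between replicates as follows. With quantile normalization the glyoxylate list was at -1.43 (main value -1.76), one-carbon -2.0 (-2.14), proline -1.92 (-2.22), branched chain -1.86 (-2.08) and other amino acids -2.13 (-2.31). With normexp and the 75th percentile creatine was at -0.40 (0.17), glyoxylate -2.31, monoamine -0.44 (-1.02), one-carbon -1.95, other amino acids -2.65 and polyamine -0.94 (-0.64). With normexp and quantile normalization glyoxylate was at -1.52, monoamine -0.42, tyrosine -2.14 (-2.46), one-carbon -1.41, proline -1.74, branched chain -1.53 and other amino acids -1.96. Without a detection filter tyrosine was at -1.84 and other amino acids -2.15, and with detection on all arrays of a group glyoxylate was at -2.24. On slide 1 creatine was at -0.40, glyoxylate -1.57, monoamine -2.04, one-carbon -1.75 and other amino acids -2.64; on slide 2 glyoxylate was at -2.03, tyrosine -1.89 and other amino acids -2.03. With 1 array left out monoamine ran from -1.75 to -0.73 and one-carbon from -2.22 to -1.95. The cause was not tested.

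The pair difference of Dmgdh and Sardh, 0.10, was -0.68 with normexp and the 75th percentile, -0.60 with normexp and quantile normalization, -0.24 with a floor of 0.02, -0.0045 on slide 2 and -0.90 to 0.87 with 1 array left out. That of Gatm and Gamt was 0.26 on slide 2 and -0.87 to -0.15 with 1 array left out. With normexp and the 75th percentile the differences 3.03 (Hpd and Hgd), -0.38 (Prodh and Aldh4a1) and -3.67 (Ddc and Maoa) missed the threshold. Their exact permutation adjusted p were 0.0714, 0.657 and 0.0714, which depend on how many pairs reach the smallest p. Pairs were not run with blocks, where too few splits remain, or with other detection filters. Deviations of same-numbered replicates had correlations of 0.011, 0.010, 0.048 and -0.016, within the -0.083 to 0.091 of differently numbered ones. No pairing by number was seen, though so few correlations cannot exclude it. With the replicate number as a block 3258 genes were called (1642 higher, 1616 lower), and 8 of the 9 genes, Gatm having a limma adjusted p of 0.0516. Normexp adds an offset of 50, which compresses low signals, so dim probes such as those of Sardh, Dmgdh and Prodh limit what can be said of the size of their falls.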
